A study of Mus musculus with 6 samples.

Results

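The loci described here are 9 genes chosen from mouse domains that are imprinted from the father: *H19*, *Igf2*, *Dlk1*, *Meg3*, *Rian*, *Mirg*, *Dio3*, *Rasgrf1*, and *Zdbf2*. Their members are the CpG sites whose closest transcription start site (TSS) in the deposited table is that of 1 of these genes, at any distance. The table holds 1017 such sites among 2268080, and 292 of them had 10 or more reads in all 6 samples, of 681804 sites in the whole series that did. With a minimum of 5 reads the number of member sites was 431. The sites with 10 or more reads are used throughout unless a smaller minimum is named.

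GS cells are spermatogonia grown in culture on mouse embryonic fibroblasts with GDNF and FGF2, and only some of them are spermatogonial stem cells. The cells had the genotype DBA/Tg14(act-EGFP-OsbY01) in both groups, so that the control cells carried the same EGFP transgene. Space GS cells (3 samples) were kept frozen for 6 months on the International Space Station, and Ground GS cells (3 samples) were kept frozen for 6 months on Earth. DNA was examined after thawing and passaging by reduced representation bisulfite sequencing (RRBS), in which DNA is cut with MspI at CCGG and unmethylated cytosines are converted, which leaves the methylated ones to be counted read by read. The level of a site is the percent of its reads that are methylated. The labels do not say whether the samples came from separate cultures, so the p-values below measure only the spread between these samples.

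Imprinted genes are expressed from only one parental copy, and the choice follows DNA methylation that is set in the germ line. At most imprinted loci the methylation comes from the egg, and only a few control regions receive it in the male germ line. These are the *H19* control region upstream of the *H19* RNA gene, the intergenic region (IG-DMR) between *Dlk1* and *Meg3*, and a region far upstream of *Rasgrf1*. A region upstream of *Zdbf2* is also methylated on the paternal copy in somatic cells, and when that methylation is set was not examined here. In somatic cells the control regions are methylated on the paternal copy and free of methylation on the maternal copy. In spermatogonia, in which the imprints of the parents have been replaced, both copies carry the paternal form.

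The *H19* control region is the region whose methylation was examined in the offspring of these cells by other methods, and the primers of those assays show which stretch they read and whether RRBS can see it. They are given 5′ to 3′ as made for bisulfite-converted DNA, in lower case throughout.
*H19* combined bisulfite restriction forward: ggaatatttgtgtttttggaggg
*H19* combined bisulfite restriction reverse: ttaaaccccaacctctacttttataac
*H19* bisulfite sequencing forward: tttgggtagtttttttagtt
*H19* bisulfite sequencing reverse: aaccccaacctctactttta
Matched to converted GRCm38 sequence, the first pair frames chr7:142580046-142580893 (848 bp, minus strand), and the second pair chr7:142580049-142580416 (368 bp). These stretches lie 1903 to 2750 bp and 1906 to 2273 bp upstream of the *H19* start in GENCODE M21. They hold 32 and 20 CG and 0 CCGG each, so the enzyme has no site inside them. The deposited table holds 0 rows in this stretch, and 0 with a margin of 100 bp on either side.

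The promoters of *Meg3*, a long noncoding RNA gene of the maternal copy, and *Zdbf2*, a paternally expressed gene, are shown because they lie near paternally methylated regions and were both read by RRBS. The sequences are from RefSeq (GRCm38.p6), in which 8 of the 9 genes were matched by symbol, with every CG in capitals.
*Meg3*, chr12:109540746-109541045, plus strand: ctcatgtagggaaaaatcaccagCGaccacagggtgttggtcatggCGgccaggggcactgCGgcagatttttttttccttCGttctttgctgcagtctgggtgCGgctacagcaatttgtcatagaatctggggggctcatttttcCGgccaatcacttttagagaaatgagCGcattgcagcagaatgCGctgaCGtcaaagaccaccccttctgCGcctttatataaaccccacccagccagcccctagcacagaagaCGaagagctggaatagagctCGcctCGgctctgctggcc
*Zdbf2*, chr1:63273019-63273268, plus strand: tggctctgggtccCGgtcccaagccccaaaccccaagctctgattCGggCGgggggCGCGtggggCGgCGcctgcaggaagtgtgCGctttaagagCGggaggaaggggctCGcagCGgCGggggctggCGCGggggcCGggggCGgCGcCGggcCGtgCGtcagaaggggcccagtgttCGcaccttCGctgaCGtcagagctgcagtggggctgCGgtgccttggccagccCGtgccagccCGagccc
The *Meg3* window of 300 bases holds 13 CG and 1 CCGG, and the 250 bases before this *Zdbf2* start hold 26 CG. CCGG (the same on both strands) was present in 52.8% of the 32851 promoter windows of this length, whose median number of CG was 7. The table uses mm39, so these bases were not paired one by one with the sites below, and positions are given as the distance from the TSS of the table, with a minus sign for upstream. Whether a site lies in an exon or intron is not given here.

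At these loci the methylation level differed more by position than by group. Of the 126 member sites within 1 kb of a TSS, 125 had a mean level under 10% and 0 were over 90%. Of the 58 sites farther upstream, 37 were under 10%, 12 were between, and 9 were over 90%. Downstream beyond 1 kb, 66 of 108 sites were under 10% and 20 were over 90%. Over all sites of the series, 98.7% of those within 1 kb were under 10%. Farther upstream, 41.1% of all sites were under 10% and 38.8% over 90%, against 63.8% and 15.5% of the member sites there. Beyond 1 kb downstream these shares were 53.5% and 32.1% of all sites, against 61.1% and 18.5% of the member sites. Most of the 37 low upstream member sites came from a *Dlk1* stretch at -14969 to -14793 bp and a *Rasgrf1* stretch that began at -1218 bp, just past the 1 kb limit. The member share upstream therefore rests on few stretches. Sites read together share their reads: the 292 sites formed 127 runs of neighbouring sites with the same coverage in every sample. The levels are therefore a description of fewer molecules than sites.

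**Figure D1:**
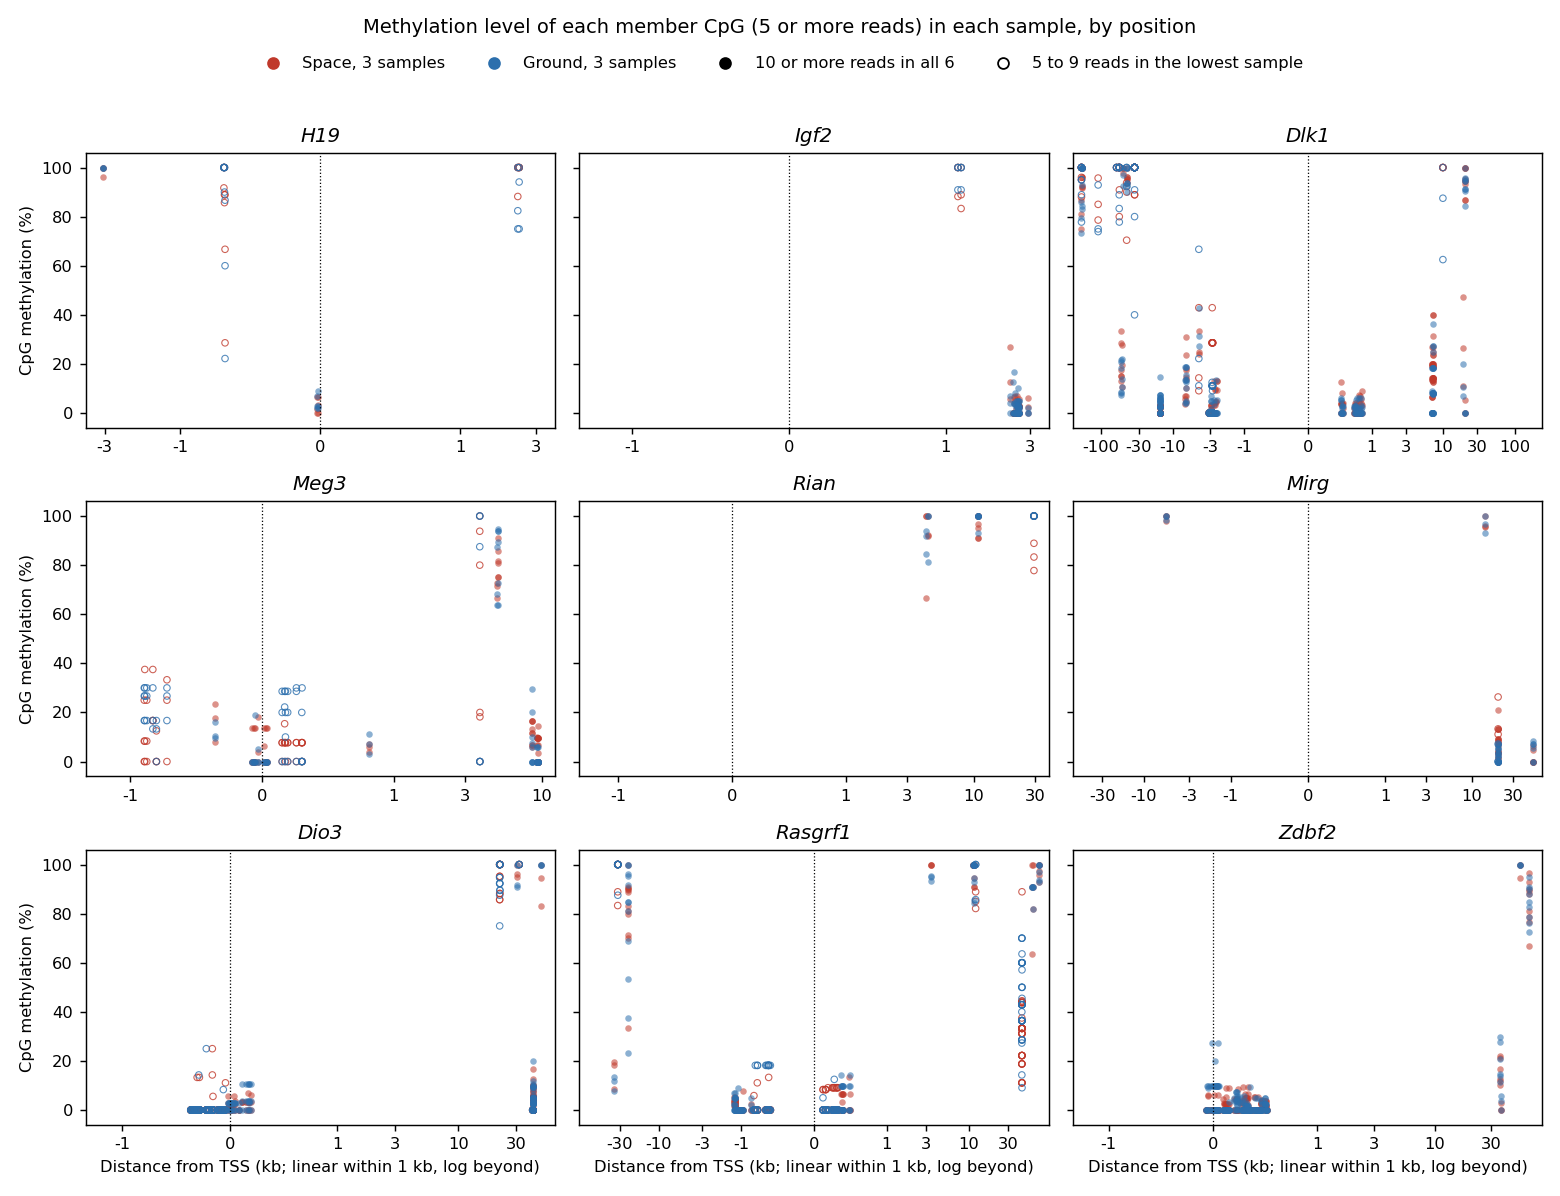
Methylation level (%) of each member CpG with 5 or more reads in all samples, in each of 3 Space (red) and 3 Ground (blue) samples, against the distance from the TSS in kb (linear within 1 kb, logarithmic beyond). Filled points have 10 or more reads in all 6 samples and open points 5 to 9 in the lowest, and low levels at the TSS of *H19*, *Dlk1*, *Meg3*, *Dio3*, *Rasgrf1*, and *Zdbf2* stand beside high levels farther away in both groups.

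*H19*, which gives an imprinted noncoding RNA, had 25 sites in the table and 3 with 10 or more reads (TSS at chr7:142131916, minus strand, mm39 as all TSS positions here). The only site between 1.5 and 5 kb upstream, where the control region lies, was at -3051 bp, outside the stretches read by the primers above. It was methylated in 96, 100, and 100% of the reads in Space GS cells, with 100% in all 3 Ground GS cell samples. These levels rest on 15 to 25 reads, and the Wilson 95% interval of the lowest, 24 of 25 reads, was 80.5 to 99.3% (counting error only). The difference was -1.33 percentage points (two-sided exact permutation test, p = 1.0; the smallest p that 3 against 3 samples allow is 0.1). At the TSS itself the state was the opposite. The sites at -25 and -12 bp, which share their reads, had a mean level of 2.54, 6.38, and 0.0% in Space GS cells against 2.94, 7.95, and 2.04% in Ground GS cells, from 34 to 59 reads.

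Between these, sites with 7 to 15 reads at -686 and -682 bp were at 85.7 to 100% in every sample. The site at -678 bp, only 4 bp further on, was at 88.9, 28.6, and 66.7% in Space GS cells against 60, 22.2, and 86.7% in Ground GS cells. Its levels in the 2 groups overlapped and ranged widely in both. Within the gene, sites at 2316 and 2362 bp with 8 to 17 reads averaged 94.1, 100, and 100% in Space GS cells against 75, 88.2, and 100% in Ground GS cells (exact permutation p = 0.4).

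*Igf2*, the growth factor gene that shares its enhancers with *H19*, had 73 sites in the table (TSS at chr7:142220552, minus strand). All 19 of its sites with 10 or more reads lay 2314 to 2959 bp downstream of the TSS, and all 19 had mean levels under 10%. Their mean was 3.11, 2.4, and 1.64% in Space GS cells against 3.87, 1.23, and 1.8% in Ground GS cells (exact permutation p = 1.0). The pair of sites at 1176 and 1226 bp, with 9 to 17 reads, was high instead, at 91.7 to 94.4% in Space GS cells against 90.9 to 100% in Ground GS cells. None of the 9 sites within 1 kb of the TSS had 5 reads in all samples. In the stretch 1 to 25 kb downstream, 90 sites of any closest gene were read, of which 87 were under 10% and 3 over 90%.

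*Dlk1* (a paternally expressed membrane protein of the Notch ligand family), *Meg3*, *Rian*, and *Mirg* (noncoding RNAs of the maternal copy), and *Dio3* (a deiodinase that inactivates thyroid hormone) lie in one domain on chromosome 12, which the IG-DMR controls. Their TSS positions, all on the plus strand, were 109418748 for *Dlk1*, 109506878 for *Meg3*, 109570241 for *Rian*, 109696197 for *Mirg*, and 110245501 for *Dio3*. No site in the stretch 8 to 20 kb upstream of *Meg3*, drawn to take in the IG-DMR, had *Meg3* as closest gene with 5 or more reads. However, 4 sites there had the predicted gene *Gm34081* as closest gene, and the values are given as the only view of this stretch. The 3 sites from -14258 to -14234 bp were at 98.3, 96.3, and 97.5% in Space GS cells against 97.4, 96.6, and 97.5% in Ground GS cells, from 27 to 40 reads. The single site at -15197 bp was lower, at 80.6, 77.4, and 82.2% in Space GS cells against 76.9, 63.4, and 83.3% in Ground GS cells. Over the 4 sites, the mean was 93.0 ± 1.28% in Space GS cells against 91.5 ± 2.92% in Ground GS cells (SD, n = 3 each; exact permutation p = 0.7).

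The *Meg3* promoter was low beside this. Its 9 sites within 1.5 kb of the TSS averaged 3.2, 3.96, and 12.4% in Space GS cells against 4.5, 1.42, and 3.16% in Ground GS cells (exact permutation p = 0.4). Space sample 3 stood above the other 5 samples. The excess lay in 1 run of sites: at 6 of the 7 sites from -76 to 37 bp this sample had the same level of 13.6%, and its level over the 7 sites was 14.3%, against 0 to 2.72% in the other 5. Sites with 6 to 15 reads on either side were higher. The 6 sites from -893 to -721 bp averaged 27.1, 12.5, and 2.78% in Space GS cells against 25, 22.2, and 16.7% in Ground GS cells, and the 7 sites from 153 to 304 bp averaged 7.69, 7.69, and 2.2% against 1.43, 23.2, and 20.4%. With these included (22 sites), Space GS cells were at 8.39 ± 2.43% and Ground GS cells at 11.8 ± 2.49%, so the sign of the difference turned (3.51 points with 10 reads, -3.43 with 5). The direction at this promoter depended on the reads required, and neither difference reached the smallest p of the design (exact permutation p = 0.4 and 0.2).

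Inside *Meg3*, levels changed over a few kb. At 4993 to 5023 bp, 3 sites were at 79.4, 72.2, and 81.8% in Space GS cells against 66.7, 91.7, and 84.2% in Ground GS cells, while at 8485 to 8574 bp 3 sites were at 8.89 to 16.7% and 2.56 to 11.8%. The 10 sites at 9273 to 9345 bp were at 0, 10, and 1.67% in Space GS cells against 0 to 1.18% in Ground GS cells.

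*Rian* was high at every site read, with a mean over 5 sites of 97.7, 89.7, and 97.5% in Space GS cells against 96.9, 98.3, and 93.6% in Ground GS cells (exact permutation p = 0.7). All 5 sites lay 4274 to 10873 bp downstream of its TSS, and no site within 1 kb was read at this depth. *Mirg* had both extremes. Its sites at -5500 and 14051 bp were at 93.1 to 100% in every sample, and the 7 sites at 20051 to 20192 bp were at 4.62, 6.9, and 4.98% in Space GS cells against 3.49, 4, and 2.4% in Ground GS cells. The pair at 49992 and 49994 bp was at 0 to 8.57%.

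*Dlk1* had the most sites in the table (256, of which 69 had 10 or more reads), spread from -187750 to 20006 bp. Its promoter was low, at 1.3, 3.31, and 2.61% in Space GS cells against 3.32, 1.51, and 0.118% in Ground GS cells over 17 sites (exact permutation p = 0.7). Far upstream, 4 sites from -187750 to -187580 bp were at 86.7 to 91.2% in Space GS cells against 84.3 to 91.8% in Ground GS cells, and 3 sites from -48981 to -43900 bp averaged 96.8 to 97.5% and 93.3 to 96.7%. Intermediate levels stood among these: the site at -50484 bp was at 10.8 to 27.8% and the site at -4318 bp at 24 to 42.9% over all samples. Past the gene's end, the sites at 19906, 19999, and 20006 bp were at 84.2 to 100%, while the site at 19918 bp was at 5.26% in Space sample 3 and at 0% in the other 5 samples, from the same numbers of reads.

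The *Dlk1* gene body gave the largest difference between the groups of any window, 8.99 points in the mean site level (exact permutation p = 0.3). From 7022 to 7185 bp, within the 10514 bp that GENCODE M21 gives for the gene, 13 sites with 11 to 21 reads were covered by nearly the same reads. Over their pooled reads the level was 16.1, 22.1, and 14.7% in Space GS cells against 2.48, 16.1, and 7.05% in Ground GS cells. Ground sample 2 reached the Space samples and the other 2 Ground samples lay below them. The difference of the pooled levels, 9.06 points, had an unadjusted p of 0.0456 and an adjusted p of 0.947 in the quasi-binomial test moderated with limma. The adjustment was over all regions tested, and the exact permutation p of the pooled levels was 0.2. Within this stretch were 2 of the 3 largest differences at single member sites. At 7118 bp the level was 31.2, 40, and 19% in Space GS cells against 8.33, 0, and 8.33% in Ground GS cells, and at 7099 bp it was 20, 26.7, and 19% against 0, 9.09, and 0%. The adjusted p (quasi-binomial test with limma) of both was over 0.8 (0.807 and 0.818). The site between them at 7114 bp overlapped between the groups, at 25, 13.3, and 14.3% against 0, 18.2, and 8.33%. With a minimum of 5 reads the window also took in the site at 9937 bp, which had 8 to 13 reads. It was at 100% in all 3 Space samples against 100, 62.5, and 87.5% in Ground GS cells. With it the window was at 21.8, 27.6, and 20.7% in Space GS cells against 9.39, 19.4, and 12.8% in Ground GS cells. The groups then did not overlap (exact permutation p = 0.1), which rested on this site.

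**Figure D2:**
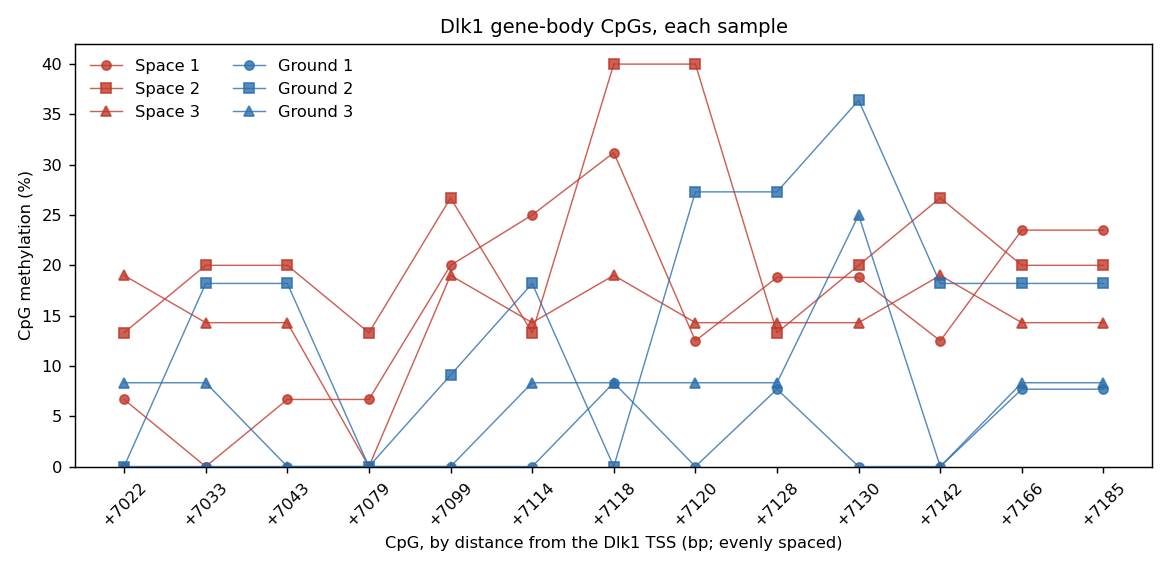
Methylation level (%) of 13 CpGs from 7022 to 7185 bp downstream of the *Dlk1* TSS, with sites evenly spaced on the horizontal axis, lines joining the sites of 1 sample, and 3 Space (red) and 3 Ground (blue) samples. Ground samples 1 and 3 lie below all 3 Space samples at 11 and 9 of the 13 sites, and Ground sample 2 reaches 36.4% at 7130 bp, above every Space sample there.

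*Dio3*, an intronless gene at the far end of the domain, was low around its TSS. The 14 sites from -14 to 197 bp were at 2.78, 2.09, and 1.39% in Space GS cells against 5, 1.32, and 1.83% in Ground GS cells over pooled reads, and 33 sites from -361 to -39 bp with 7 to 18 reads averaged 0 to 1.44% in every sample. A run of 21 sites at 40837 to 41092 bp was at 2.86 to 3.59% in Space GS cells against 2.17 to 3.8% in Ground GS cells. The single sites at 30532 and 47828 bp were at 83.3 to 100% in every sample.

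*Rasgrf1*, a guanine nucleotide exchange factor for Ras, is imprinted through a region far upstream (TSS at chr9:89791960, plus strand). Of the 5 *Rasgrf1* sites 20 to 40 kb upstream, the 4 from -24086 to -23917 bp were at 83.7, 80.6, and 85.7% in Space GS cells against 87.9, 77.3, and 74% in Ground GS cells over pooled reads, which overlapped (adjusted p = 0.977, quasi-binomial test with limma). The first of them, at -24086 bp, was at 88.9 to 90.9% in Space GS cells against 91.7 to 96% in Ground GS cells. The last, at -23917 bp, was the third of the largest single-site differences, at 71.4, 33.3, and 70% in Space GS cells against 53.3, 23.1, and 37.5% in Ground GS cells. Its 20.3 points rested on samples with as few as 10 reads, and the groups overlapped. At -35257 bp the level was only 8.57, 19.5, and 18.2% in Space GS cells against 13.3, 7.89, and 11.9% in Ground GS cells. Sites with 6 to 18 reads from -31811 to -31631 bp were high, with means over 3 sites of 100, 94.4, and 96.3% in Space GS cells against 100, 95.8, and 100% in Ground GS cells.

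The *Rasgrf1* promoter averaged 0.207, 0, and 5.85% in Space GS cells against 3.05, 0, and 7.47% in Ground GS cells over 11 sites (exact permutation p = 0.7). Inside the gene, 5 sites at 11336 to 11421 bp were at 95.7 to 100% in every sample. The 14 sites at 44027 to 44237 bp, covered by the same 7 to 16 reads, were intermediate: their mean was 28.6, 31.7, and 32.5% in Space GS cells against 58.6, 36.4, and 37.8% in Ground GS cells. All 3 Ground samples lay above all 3 Space samples there (exact permutation p = 0.1), in a stretch that had under 10 reads in the lowest sample and was picked after its values were seen.

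*Zdbf2*, which encodes a zinc finger protein (TSS at chr1:63312423, plus strand), had the most densely read promoter, with 73 sites from -65 to 514 bp and 7 more sites from 35741 to 63335 bp downstream. The promoter was at 1.13, 0.874, and 2.96% in Space GS cells against 2.62, 0.968, and 1.03% in Ground GS cells over pooled reads. *Zdbf2* was the closest gene of 0 rows between 3 and 25 kb upstream, but 20 sites with 10 or more reads had *Gm11608*, a predicted gene. Their mean was 3.79, 2.32, and 2.07% in Space GS cells against 5.9, 1.22, and 1.34% in Ground GS cells, and all 20 lay from -24869 to -24707 bp, so most of the stretch was not read at this depth. With a minimum of 5 reads, only the 6 sites from -12010 to -11861 bp, with 6 to 15 reads, were intermediate, at 50.9, 8.33, and 23.1% in Space GS cells against 37, 13.9, and 5.56% in Ground GS cells, a spread in both groups as wide as the level itself. Downstream, 2 sites at 35741 and 35745 bp averaged 11.5 to 22.2% over the samples, and 3 sites at 63278 to 63335 bp were at 82.3, 86.5, and 84.4% in Space GS cells against 81, 82.8, and 89.4% in Ground GS cells.

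**Figure D3:**
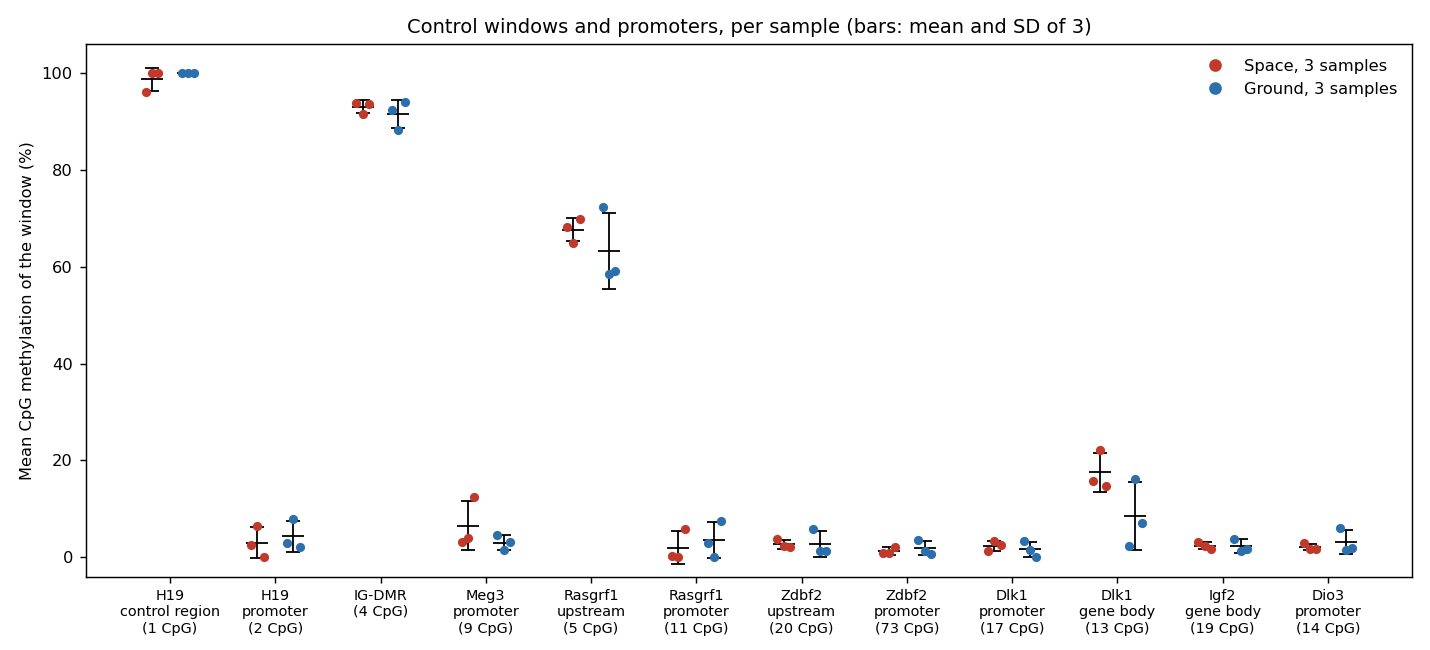
Mean CpG methylation (%) of 12 windows in each of 3 Space (red) and 3 Ground (blue) samples, with the mean and SD of each group as bars and the number of CpGs with 10 or more reads in parentheses. For the IG-DMR and *Zdbf2* upstream windows the sites have another closest gene, and the *H19* and IG-DMR windows are at 88.3 to 100% and the *Rasgrf1* upstream window at 58.4 to 72.4%, while the promoters are at 0 to 12.4%.

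To ask whether storage in space changed any of these levels, each site and each region was compared within tests over the whole table. With the quasi-binomial test (dispersion moderated with limma), 0 of 61 member sites with a mean level of 5 to 95% passed an adjusted p of 0.05, and 0 of 92042 sites did over all genes (0.0%). At an unadjusted p under 0.05 there were 5 of 61 member sites (8.2%), beside 5.61% of all sites tested, and 4 of the 5 were higher in Space GS cells (6.56%, beside 3.19%). With limma on log2 ratios 0 of 61 passed, and 7 of 61 (11.5%) had an unadjusted p under 0.05, beside 4.66% of all sites tested. Of these 7 member sites, 4 were higher in Space GS cells, and the matching share over all sites is not given here. In the quasi-binomial test, the 3 member sites with an unadjusted p under 0.05 outside the *Dlk1* gene body were *Dlk1* -52642 bp (17.4, 33.3, and 15.0% against 8.7, 7.41, and 8.33%), *Mirg* 20051 bp (9.09, 21.1, and 13.3% against 7.14, 0, and 0%), and *Zdbf2* -12 bp (0% in all 3 Space samples against 10, 27.3, and 0%). These were named after their values were seen. The levels of the 2 groups did not overlap at 6 of 61 member sites (9.84%), beside 9.07% of all sites tested. The group means differed by more than 20 points at 2 of 61 member sites (3.28%), beside 1.45%. The median absolute difference was 4.38 points at the member sites and 4.25 at all sites tested. The median of the signed difference (Space minus Ground) was 1.7 points at the member sites and 0.307 at all sites tested. Most of the 13 *Dlk1* gene-body sites from 7022 to 7185 bp were among the 61, and most of those were higher in Space GS cells. They were covered by nearly the same reads, so the member shares and medians here count that run repeatedly and are not from independent sites. No share or median was computed without it.

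Among the 23 member regions of 3 or more sites, 8 had a mean level of 5 to 95% and were tested, and 0 of them passed, as did 0 of 12557 regions in the table (0.0%). At an unadjusted p under 0.05 there was 1 of 8, the *Dlk1* gene body, beside 4.99% of all regions tested, and 0 with limma on log2 ratios, beside 4.77%. The median difference of these 8 was 1.07 points, beside 0.282 over all regions tested. At any level, 16 of the 23 regions were higher and 7 lower in Space GS cells. Their difference had a median of 0.626 points, beside 0.0763 over all regions, and its absolute size a median of 1.6 points, beside 1.03. The groups did not overlap in 3 of the 23 regions (13%), beside 9.18% of all regions at any level. These were the *Dlk1* sites at -14969 to -14793 bp (0.533, 1.14, and 0.624% in Space GS cells against 5.21, 1.33, and 3.73% in Ground GS cells), the *Dlk1* sites at -2621 to -2577 bp (2.47, 8.33, and 3.53% against 0, 1.41, and 1.79%), and the *Mirg* sites at 20051 to 20192 bp given above. The first was lower and the other 2 were higher in Space GS cells, and each differed by less than 4 points.

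**Figure D4:**
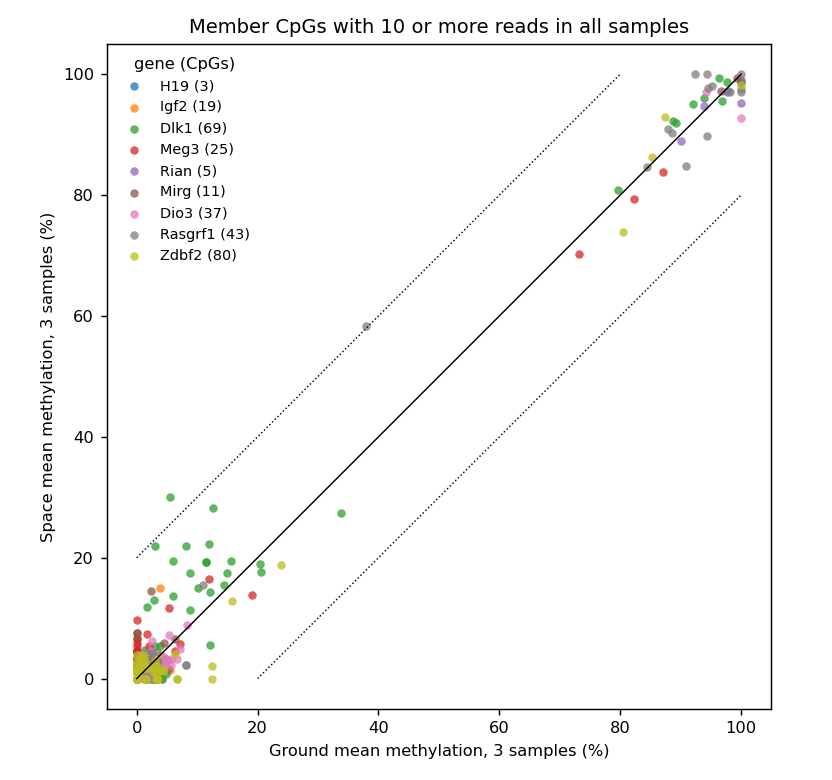
Mean methylation (%) of each of the 292 member CpGs in Space (vertical) and Ground (horizontal) GS cells, 3 samples each, coloured by gene. The solid line marks equal levels and the dotted lines a difference of 20 points, which 2 CpGs exceed, *Dlk1* 7118 bp and *Rasgrf1* -23917 bp.

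Taking each locus as the mean of its sites, 5 of 9 loci were higher and 4 lower in Space than in Ground GS cells. The median difference was 0.086 points, beside 0.0878 over 23363 genes with 3 or more sites, and the median absolute difference was 1.32 points, beside 0.732. The groups did not overlap at 2 of 9 loci (22.2%), *Dlk1* and *Mirg*, beside 9.74% of these genes. *Dlk1* was at 20.4, 21.2, and 20.4% in Space GS cells against 18.7, 18.7, and 17.6% in Ground GS cells, and *Mirg* at 22.3, 22.6, and 23.1% against 21.1, 19.2, and 20.5% (exact permutation p = 0.1 each, the smallest possible). Without the 13 gene-body sites, *Dlk1* was at 21.4 ± 0.362% and 20.6 ± 1.7% (SD, n = 3 each), and the groups overlapped (exact permutation p = 0.5). Without the 7 sites around 20 kb, *Mirg* was at 50 ± 0.0754% and 51.3 ± 3.07% over 4 sites, and the sign turned (exact permutation p = 0.4). With a minimum of 20 reads the *Dlk1* difference was 0.0101 points. With equal weight for each locus, the 9 loci averaged 26.1 ± 0.276% in Space GS cells against 25.7 ± 0.567% in Ground GS cells (SD, n = 3 each; exact permutation p = 0.3).

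The promoters of genes at which the egg sets the imprint, such as *Peg3*, *Kcnq1ot1*, *Plagl1*, and *Grb10*, were low in both groups. Of 15 listed genes 12 were measured, and all 12 were under 5%, with a median of 2.17% beside 1.77% over 14373 promoters. Because 95.2% of those promoters were under 10%, this count does not set the listed genes apart. Whether the sites read lie inside the control regions was not examined. Their mean was 2.01 ± 0.0845% in Space GS cells against 2.04 ± 0.5% in Ground GS cells (SD, n = 3 each; exact permutation p = 1.0). As a check on the cell type, the list of germ-cell genes holds promoters that are free of methylation in germ cells and methylated in somatic cells, since fibroblasts of the feeder layer could be in the samples. Of 14 listed genes 12 were measured, and 11 of them (91.7%) were under 10%, beside 95.2% of all promoters with 3 or more sites, so the count does not set these promoters apart. Among them were *Dazl* at 2.36%, *Ddx4* at 2.41%, and *Sycp3* at 1.9%. The exception was *Dpep3*, at 26% over 2 sites. The mean of the list ranged from 2.85 to 6.7% over the samples, at 5.12 ± 0.957% in Space GS cells against 4.74 ± 1.93% in Ground GS cells (exact permutation p = 0.9). The share of feeder cells in the samples was not tested. Of 12 listed neighbours in the same domains, 6 were measured. Of these, 5 promoters were under 5%, and the single site near the *Nctc1* start, downstream of *H19*, was at 95.5%. The mean of the 6, which the *Nctc1* site raised, was 17.7 ± 0.0336% in Space GS cells against 16.9 ± 0.129% in Ground GS cells (SD, n = 3 each; exact permutation p = 0.1, the smallest possible). The difference was 0.763 points, and the groups did not overlap. Of the 6 genes, 5 were higher and 1 lower in Space GS cells, from 2.72 points at *Ctsh* and 1.51 at *Nctc1* to -1.02 at *Tmed3*. The groups did not overlap at *Begain*, *Nctc1*, and *Ctsh* (exact permutation p = 0.1 each) and overlapped at *Adam23*, *Mrpl23*, and *Tmed3*. Over genes with 3 or more sites, means of sites at any distance did not overlap in 9.74% of cases. No such share was computed for single promoters or for a mean of 6 promoters, so these values have no matching background.

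A low promoter beside high upstream sites was common. Among 3769 genes with 3 or more sites in both windows, 38.6% had a promoter under 10% and a mean over 80% from 1 to 50 kb upstream. Only *Dlk1* and *Rasgrf1* among the 9 loci had enough sites for this, and 0 of the 2 met these limits, since their upstream sites averaged 15.54% and 15.9%. Most of the 22 upstream *Rasgrf1* sites belonged to the low stretch that began at -1218 bp, so this mean largely describes the edge of the promoter. The 5 *Rasgrf1* sites from -40000 to -20000 bp averaged 65.5% over all samples (single sites 13.2 to 92.1%), against 2.76% at the promoter. That mean was also under 80%.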

How the data were processed

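Genomic DNA of 3 Space and 3 Ground GS cell samples was prepared with the Zymo-Seq RRBS kit. The submitters' processing notes name Trim Galore, Bismark 0.24.2, methylKit, and the mm39 genome, without settings. The removal of copied reads is not given in the sources used here, so intervals cover counting error only. The authors deposited, for each sample in a single table, the read coverage of each CpG as a count and the methylated share as a percent, with the closest TSS. Coverage summed over sites was 28535973 to 33743845 per sample, where a read that spans several CpGs is counted at each of them. The number of methylated reads, the product of both, lay within 0.000266 of a whole read. No rows were 1 bp apart, so both strands of a CpG appear as 1 row.

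Samples were grouped by title. Sites needed 10 reads in all samples, and regions were 3 or more sites no more than 100 bp apart with the same closest gene. Sites and regions with a mean level of 5% to 95% were compared with a quasi-binomial test on the methylated reads of each sample, with dispersion moderated by squeezeVar of limma 3.58.1 in R 4.3.3, and Benjamini-Hochberg adjustment over the whole table (threshold 0.05). The level limits for regions were added when the test was tested on simulated data. Loci and windows were compared with two-sided exact permutation tests of the mean site level per sample. Windows and lists came from general knowledge of the loci. The members, windows, and lists were chosen with earlier results of these data known. Named items were the 9 genes, their regions and windows, sites past the threshold, the 3 member sites with the largest difference, and genes of the fixed lists. Primers were placed on GRCm38 by matching both converted strands, and no coordinate was converted between builds. Alternatives were coverage minimums of 5 and 20 reads, pooled reads, leaving out sites within 1 kb, other level limits, a gap of 300 bp, limma on log2 ratios with 2 reads added to each state, a replicate block, and leaving out each replicate. Sites of any closest gene and regions of any level were added after the data were seen. Rows were handled with the data.table package (1.17.8), pandas 2.3.3, and scipy 1.17.1 in Python 3.11.15, and figures drawn with matplotlib 3.10.9.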

Additional observations from a re-analysis of the deposited data

How the results depend on the processing

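The number of member sites or regions past the adjusted threshold was 0 under all 23 alternatives run, although the site test over all genes called 1 site without Space sample 3 and 5 without Ground sample 1, none of them a member. The differences of loci and windows, in percentage points (Space minus Ground), kept their sign in 37 of 53 values under other settings and in 95 of 108 with 1 sample left out. Values that a setting cannot change (the replicate block, and settings that left the same sites) and the *Igf2* gene body, which has the sites of the locus, are not in these counts. With a minimum of 5 reads the sign turned at the *H19* locus (1.72), the *Igf2* locus and gene body (-0.261, the same sites), the *Meg3* locus (-0.806), the *Rasgrf1* locus (-2.25), and the *Meg3* promoter (-3.43). At this minimum the groups did not overlap at the *Rasgrf1*, *Dlk1* (2.5), and *Mirg* (3.41) loci and the *Dlk1* gene body (9.54), with an exact permutation p of 0.1, the smallest possible. The gene body gained only the site at 9937 bp, given above, and without it the groups overlapped. The share of all genes at this minimum is not given here. With 20 reads the sign turned at *Igf2* (-0.596, both), the *Meg3* locus and promoter (-1.48, both from 1 site), the *Dio3* locus (0.252), the *Zdbf2* locus (0.347) and promoter (0.699), and the *Rasgrf1* upstream window (-0.0532). With reads pooled over sites it turned at *Igf2* (-0.064, both), the *Rasgrf1* locus (-0.828), and the *Zdbf2* promoter (0.112), and with sites of any closest gene at the *Dio3* promoter (0.356). In each alternative the sites or their weights differed, and the cause was not tested further.

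With 1 sample left out, differences that turned ranged from -0.449 to 0.872 at *Igf2* (locus and gene body), -2.7 to 1.31 at *Rian*, -0.572 to 1.22 at the *Rasgrf1* locus, -1.13 to 0.021 at the *Zdbf2* locus, -3.04 to 0.484 at the *H19* promoter, -0.00334 to 1.6 at the *Dlk1* promoter, -1.83 to 0.417 at the *Dio3* promoter, -3.41 to 0.493 at the *Rasgrf1* promoter, and -1.17 to 0.241 at the *Zdbf2* promoter. At the *H19* control region the difference ranged from -2.0 to 0.0, the latter without Space sample 1. The *Dlk1* and *Mirg* loci kept a positive difference (1.97 to 2.55 and 1.86 to 2.82), and the *Dlk1* gene body ranged from 5.94 without Ground sample 1 to 12.8 without Ground sample 2. The deviations of samples with the same replicate number had correlations of 0.0438, 0.022, and 0.00988. Those of samples with different numbers had correlations of -0.0367 to 0.0146. All were weak, and these values do not settle whether the number pairs the samples. With the replicate number as a block, 0 member sites and 0 member regions passed. The differences of 2.34 at *Dlk1* and 2.4 at *Mirg* had an exact paired p of 0.25, the smallest that 3 pairs allow. No value was had for the *Igf2* promoter and, with *Meg3* and *Zdbf2* as closest genes, for the IG-DMR and *Zdbf2* upstream windows, nor for the *H19* control region, the *Rian* locus, and the *Dlk1* gene body with 20 reads. With 10 to 76 reads per site and 3 samples a group, small differences were not detectable. A difference of 24.5 points at *Dlk1* 7118 bp did not pass either (adjusted p = 0.807, quasi-binomial test with limma). The smallest adjusted p of that test over all 92042 sites was 0.402. The counts of 0 therefore do not exclude large differences at single sites.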
